A study of Mus musculus with 6 samples.

Results

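The EGF receptor family and its ligands were examined in podocytes, the epithelial cells that cover the outside of the glomerular filter. The 10 genes were taken by name from a count table of 57132 genes: the receptors Egfr, Erbb2 and Erbb3, the ligands Hbegf, Areg, Ereg, Tgfa, Btc and Nrg1, and the inhibitor Errfi1. All 10 were found in the table, and the rule used names only. RNA-seq counts were available for 3 samples of immortalized wildtype podocytes (line IMWT, Col4a3+/+, called WT) and 3 samples of immortalized Alport Syndrome podocytes (line IMAS, Col4a3-/-, called AS), labelled as coming from adult male mice 8 weeks of age and given no treatment. Alport syndrome is a kidney disease caused by loss of a collagen IV network of the glomerular basement membrane, to which Col4a3 contributes a chain. Both lines carry the H-2Kb-tsA58 transgene, a temperature-sensitive large T antigen under an interferon-inducible promoter, and each genotype is represented by 1 line, which leaves genotype and line confounded: their effects cannot be told apart. The labels give growth at 33 °C with 20 U/mL interferon gamma and 14 days at 37 °C, whereas the methods of the study give a shorter differentiation and a lower interferon dose. The labels do not say whether the 3 samples of a line were separate cultures, and a general remark on independence in the methods of the study does not name these libraries. The p-values then measure the spread between these samples, which may be technical.

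The total count lay between 45417221 and 54290968 per sample. Col4a3 was at 1087 ± 170 (SD, n = 3) CPM (counts scaled to a fixed library total after TMM normalization) in WT and at 68.8 ± 12.2 (SD, n = 3) CPM in AS podocytes. The AS samples, labelled Col4a3-/-, lay below the WT samples. Of 7 podocyte markers, 4 reached a mean of 1 CPM in at least 1 line. Nphs1 (nephrin), a defining gene of the slit diaphragm, was at 0.466 (WT) and 0.0407 CPM (AS), near 0 in both lines. Synpo (synaptopodin) was at 803 (WT) and 526 CPM (AS), Wt1 at 20.6 and 2.5 CPM, and Podxl at 14.1 and 7.25 CPM. The summed CPM of 6 endothelial markers was at most 1.35 in any sample and that of 6 immune markers at most 3.14. The summed level of 6 parietal epithelial markers was 643 to 672 CPM in WT and 503 to 533 CPM in AS samples, with Krt8 and Krt18 at or near 0. That of 6 mesangial and pericyte markers, most of it Acta2, was 5761 to 7906 CPM in WT and 6414 to 7539 CPM in AS samples, but Pdgfrb was lower in AS podocytes, at 116 against 253 CPM (edgeR adjusted p = 8.71e-07), and so was Cspg4, at 0.445 against 10.2 CPM (edgeR adjusted p = 1.82e-05). Both were named after their values were seen. The sum of 6 tubular markers, most of it Lrp2 and with Umod and Aqp2 at 0, was 251 to 312 and 202 to 312 CPM. The part of these markers in the results below was not tested.

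Receptors of this family are tyrosine kinases that pair with each other when a ligand binds, and their signal runs through RAS and ERK and through PI3K and AKT. Egfr binds epidermal growth factor and its relatives, Erbb2 has no known ligand of its own and serves as a partner, and Erbb3 binds neuregulins but has little kinase activity. The ligands are made as membrane proteins and are cut off by proteases of the ADAM family. Errfi1 (also called Mig6) binds the Egfr kinase and shuts it down, and its own gene is switched on by ERK signalling, which makes it a feedback inhibitor. In the glomerulus, Hbegf and Egfr are known from the podocyte's part in crescent formation.

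Expression of this family differed between the lines in both directions. Egfr, the most abundant receptor, was 0.622 times as high in AS as in WT podocytes, while Erbb2 was 1.38 times as high. Among the ligands, Nrg1, Ereg and Tgfa were higher in AS podocytes, at 1.56, 2.14 and 1.93 times the WT level, and Btc, close to the lower end of detection, was 0.601 times as high. Erbb3, Hbegf and Errfi1 did not pass the test, and Areg was too low to be tested. In all, 9 of the 10 genes passed the filter on low counts and 6 of these 9 differed between the lines, 4 higher and 2 lower, without overlap between the lines in any of the 6 (edgeR's quasi-likelihood test, two-sided, Benjamini-Hochberg adjusted p under 0.05). Over all 16263 genes tested, 40.1% were called (20.4% higher and 19.6% lower), and the samples of the lines did not overlap in 52.3%, so these counts stand on a background in which many genes differed. The median log2 fold change was 0.09 over the 9 genes and 0.01 over all genes tested. In bulk RNA, fewer cells that express a gene and less RNA per cell cannot be told apart.

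**Figure D1:**
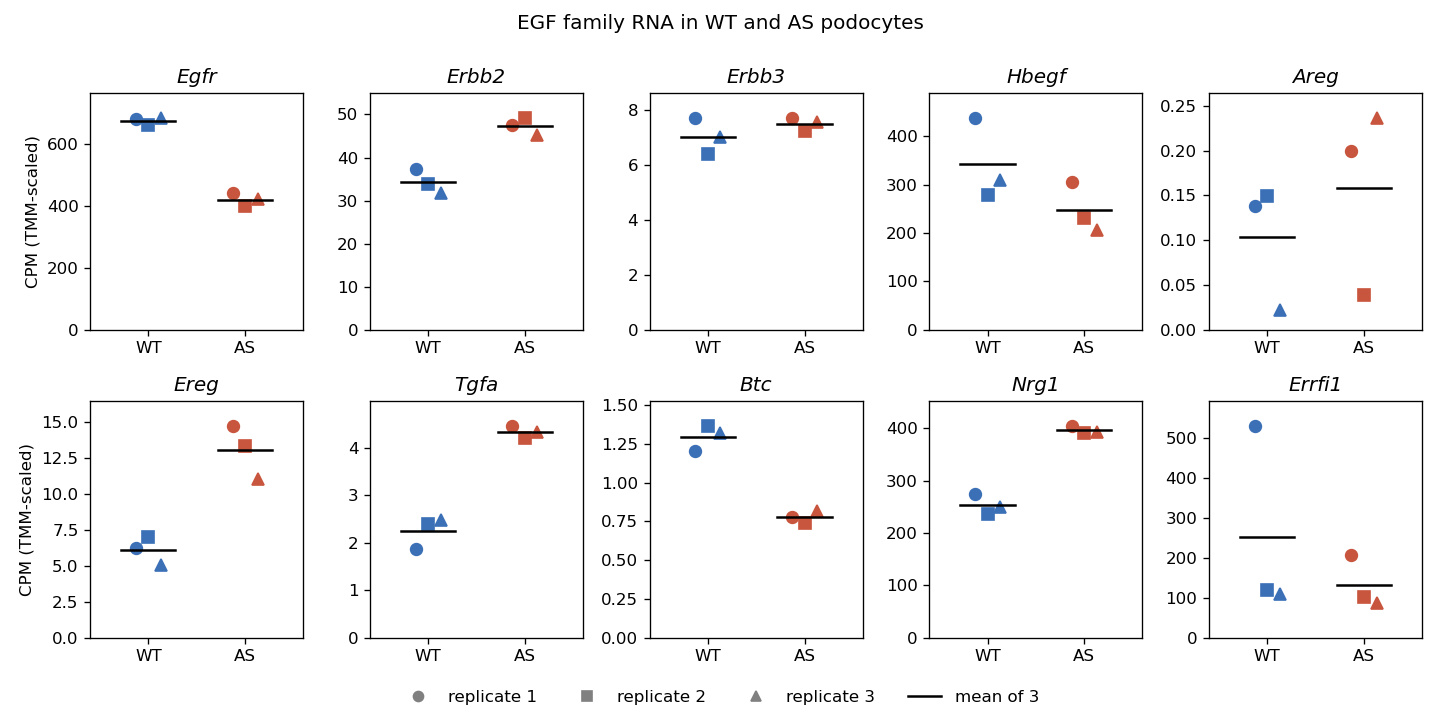
CPM on TMM-scaled library sizes (vertical axes, linear from 0) of the 10 genes in the 3 WT (blue) and 3 AS (red) samples, with a symbol for each replicate number and a black line at the mean of 3. The lines do not overlap in Egfr, Erbb2, Ereg, Tgfa, Btc and Nrg1, and WT replicate 1 stands far above the other samples in Errfi1, at 530.1 CPM.

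Egfr was the receptor with the smallest spread between WT samples, but with the largest between AS samples. The WT samples held 680.4, 662 and 683 CPM and the AS samples 440.2, 399 and 421 CPM. Each AS sample lay below each WT sample, and the WT samples differed by a factor of 1.03, a smaller spread than in all but 3.88% of the genes tested. The AS samples differed by a factor of 1.10, and 32.9% of the genes tested had a smaller AS spread. In log2, the fold change of AS over WT was -0.68 (standard error, SE, 0.061, edgeR adjusted p = 2.95e-05), and the AS to WT ratio was 0.647, 0.602 and 0.617 when samples of the same number were set side by side. Across all alternative fits the log2 fold change stayed between -0.73 and -0.64. On chromosome 11, which holds both Egfr and Erbb2, the median log2 fold change was -0.05 over 861 genes, relative to all chromosomes. Chromosome medians, here and below, were taken over genes with a mean log2 CPM over 2. They are relative to the median of such genes on all chromosomes.

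Erbb2, the partner receptor, moved the other way. It was at 37.4, 33.8 and 31.8 CPM in the WT samples and at 47.6, 49.1 and 45.2 CPM in the AS samples. All AS samples were above all WT samples, as were those of 26.4% of the genes tested, and the log2 fold change was 0.46 (SE 0.074, edgeR adjusted p = 0.00105). It stayed between 0.41 and 0.53 in all alternative fits. Erbb3, the neuregulin receptor, was at 7.69, 6.41 and 7.0 CPM in WT and 7.70, 7.24 and 7.56 CPM in AS samples. The lines overlapped, and the difference, 0.09 in log2 (SE 0.12, edgeR adjusted p = 0.576), did not exceed the sample-to-sample spread. Erbb3 lies on chromosome 10, where the median log2 fold change was 0.31 over 523 genes, and its log2 fold change became -0.22 (edgeR adjusted p = 0.192) once the median of each chromosome was removed, which also missed the threshold. Erbb4, the other neuregulin receptor, had no count in the WT samples, which allows up to 0.0209 CPM (3 counts over the group), and 0, 1 and 5 counts in the AS samples.

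The promoters of Egfr and Erbb2 are shown because these receptors share a chromosome and moved in opposite directions. The sequences are the 250 bases before the RefSeq start in GRCm38.p6, plus strand, and the windows were searched on both strands for TGACGTCA (the cAMP response element, CRE), TATAAA (the TATA box) and GGGCGG (the GC box). Capitals mark a match in either orientation.
Egfr, chr11:16751953-16752202: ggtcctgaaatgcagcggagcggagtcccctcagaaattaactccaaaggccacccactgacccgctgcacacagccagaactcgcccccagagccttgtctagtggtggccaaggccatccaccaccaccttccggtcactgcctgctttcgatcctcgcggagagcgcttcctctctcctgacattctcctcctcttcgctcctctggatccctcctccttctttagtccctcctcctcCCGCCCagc
Erbb2, chr11:98412234-98412483: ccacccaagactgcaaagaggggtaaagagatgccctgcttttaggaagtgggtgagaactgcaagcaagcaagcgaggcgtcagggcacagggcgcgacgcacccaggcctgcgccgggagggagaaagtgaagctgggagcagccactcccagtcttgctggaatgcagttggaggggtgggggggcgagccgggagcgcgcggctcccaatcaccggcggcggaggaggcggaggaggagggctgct
The Egfr window held 1 GC box, which starts at -9 counted from the start, and no CRE or TATA letters. The Erbb2 window held none of the 3. A GC box was found in 32.7% of the 32851 promoter windows of the same length in the RefSeq table.

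Nrg1, the neuregulin that binds Erbb3 and Erbb4, was the ligand with the smallest adjusted p. The WT samples held 275, 236 and 249 CPM and the AS samples 404, 391 and 392 CPM. The lines were well apart and the AS samples differed by a factor of 1.03, with a log2 fold change of 0.64 (SE 0.068, edgeR adjusted p = 7.90e-05). On chromosome 8, where Nrg1 lies, the median log2 fold change was 0.31 over 611 genes, relative to all chromosomes. With the median of each chromosome removed, the log2 fold change of Nrg1 was 0.34 (edgeR adjusted p = 0.00433), still past the threshold. Nrg1 has many isoforms, with and without a transmembrane part, and counts per gene do not tell them apart. Its exons share 482 bases with a gene on the opposite strand, Gm26578, which matched no row of the table.

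Ereg (epiregulin) and Tgfa (transforming growth factor alpha), both ligands of Egfr, were low in both lines and higher in AS podocytes. Ereg was at 6.23, 6.99 and 5.07 CPM in WT and 14.7, 13.4 and 11 CPM in AS samples, a log2 fold change of 1.10 (SE 0.15, edgeR adjusted p = 0.000434). Tgfa was at 1.87, 2.39 and 2.47 CPM in WT and 4.46, 4.20 and 4.34 CPM in AS samples, a log2 fold change of 0.95 (SE 0.17, edgeR adjusted p = 0.00168). The lines did not overlap in either gene. The calls rest on 234 to 687 counts per sample for Ereg and on 95 to 239 for Tgfa. Exons of Ereg share 141 bases with the antisense gene Gm19610, which was at 0.816 (WT) and 2.34 CPM (AS), and without a stated strand setting, reads of this stretch cannot be assigned to either gene. The gene that overlaps Tgfa on the opposite strand (Gm43917, 118 bases) was at 0.0210 (WT) and 0.0242 CPM (AS).

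Btc (betacellulin), a ligand of Egfr and Erbb4, was the lowest ligand tested. It was at 1.20, 1.37 and 1.32 CPM in the WT samples and 0.777, 0.739 and 0.818 CPM in the AS samples, from 61 to 64 and 35 to 45 counts. The AS samples lay below the WT samples, and the log2 fold change was -0.73 (SE 0.24, edgeR adjusted p = 0.0346). This call rested on every sample: it was lost without any 1 of WT replicates 1, 2 and 3 (adjusted p = 0.0563, 0.102 and 0.0891, edgeR) or of AS replicates 1, 2 and 3 (adjusted p = 0.0717, 0.0877 and 0.0689, edgeR), with the log2 fold change between -0.79 and -0.70.

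Hbegf (heparin-binding EGF-like growth factor) was the ligand with the highest mean level per kb of exons in both lines, although in CPM it was below Nrg1 in every AS sample. Among the ligands tested it varied most between samples of a line. It was at 437, 279 and 309 CPM in WT samples and at 305, 230.2 and 205 CPM in AS samples. The highest AS sample was above the lowest WT sample, and the log2 fold change of -0.47 (SE 0.18, edgeR adjusted p = 0.0625) missed the threshold. In both lines replicate 1 was the highest sample. The difference passed without WT replicate 2 (log2 fold change -0.60, adjusted p = 0.0324, edgeR), without AS replicate 1 (-0.66, adjusted p = 0.0205, edgeR) and without replicate 1 of both lines (-0.44, adjusted p = 0.00101, edgeR), an alternative added after the values were seen. It was -0.25 (edgeR adjusted p = 0.147) without WT replicate 1. The AS to WT ratio was 0.697, 0.825 and 0.663 for samples of the same number, below 1 in each.

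Areg (amphiregulin) had 7, 7 and 1 counts in the WT samples and 9, 2 and 13 counts in the AS samples, at most 0.236 CPM, and was left out by the filter on low counts. A difference in Areg was not detectable at this depth. When every gene with a count was kept, its log2 fold change was 0.60 with a standard error of 0.88 (edgeR adjusted p = 0.661).

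Errfi1, the feedback inhibitor of Egfr, had the largest spread of the family. It was at 530.1, 119.8 and 109 CPM in WT and at 206, 100.4 and 86.1 CPM in AS samples. Replicate 1 was the highest sample of both lines, with 4.64 times the mean of the other WT samples and 2.21 times the mean of the other AS samples. The lines overlapped, and the highest WT sample was 4.87 times the lowest, a larger factor than in 98.3% of the genes tested, where the median factor was 1.20. The log2 fold change over all samples was -0.95 (SE 0.57, edgeR adjusted p = 0.219), and did not pass. It turned to 0.19 (edgeR adjusted p = 0.627) without WT replicate 1. Without replicate 1 of both lines it was -0.30 (edgeR adjusted p = 0.0132), from a fit added after the values were seen.

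The promoter of Errfi1 is shown with that of Areg because both hold CRE and TATA letters close to the start, while Errfi1 was abundant and uneven and Areg was near 0, a pair picked after the windows were searched. The windows are the 250 bases before the RefSeq start, plus strand, GRCm38.p6, and the capitals mark the same 3 motifs. For Errfi1 it is the window that lies further along chromosome 4 of 2 listed.
Errfi1, chr4:150854820-150855069: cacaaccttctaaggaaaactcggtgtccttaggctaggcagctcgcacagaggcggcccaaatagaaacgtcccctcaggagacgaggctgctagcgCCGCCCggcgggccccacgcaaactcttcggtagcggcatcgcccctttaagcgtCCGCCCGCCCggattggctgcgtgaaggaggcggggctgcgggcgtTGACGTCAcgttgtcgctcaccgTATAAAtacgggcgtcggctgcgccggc
Areg, chr5:91139349-91139598: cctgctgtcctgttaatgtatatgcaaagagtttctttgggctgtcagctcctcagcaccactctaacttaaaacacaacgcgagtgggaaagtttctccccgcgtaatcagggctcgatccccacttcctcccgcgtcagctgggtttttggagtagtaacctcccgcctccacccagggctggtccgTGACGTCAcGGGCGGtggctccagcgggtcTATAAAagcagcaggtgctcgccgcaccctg
The CRE starts at -51 in Errfi1 and at -61 in Areg, and the TATA letters at -28 and -31. A CRE was found in 1.55% of all 32851 windows, TATA letters in 12.4%, and both in 0.119%. The other Errfi1 window held none of the 3 motifs. Windows were listed for 6 of the 10 genes.

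**Figure D2:**
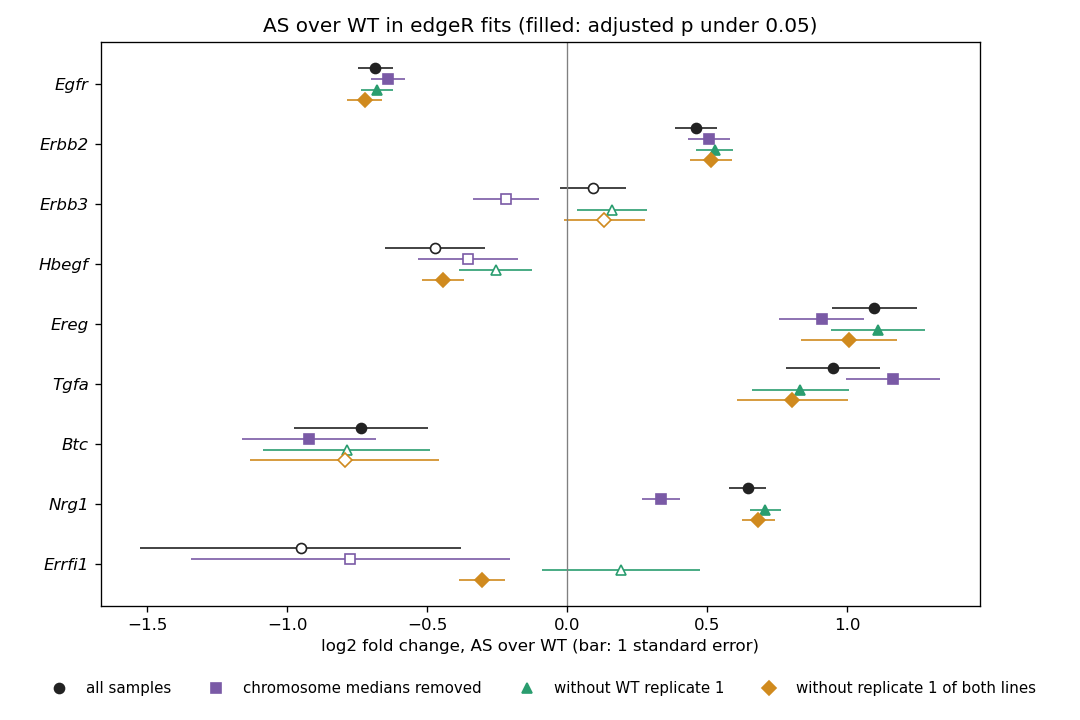
Log2 fold change of AS over WT (horizontal axis, bar 1 standard error) for the 9 genes tested, in edgeR fits with all samples, with the median of each chromosome removed, without WT replicate 1 and without replicate 1 of both lines, where filled symbols have an adjusted p under 0.05. Egfr, Erbb2, Ereg, Tgfa and Nrg1 are filled in each of these fits, Nrg1 moves from 0.64 to 0.34 when chromosome medians are removed, and Errfi1 lies on both sides of 0.

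The place of the genes within the family was compared per length, as CPM per kb of annotated exons. In WT podocytes the order was Hbegf (70.7 ± 17.4), Errfi1 (70.6 ± 67.0), Egfr (59.6 ± 1.02), Nrg1 (24.5 ± 1.92), Erbb2 (6.59 ± 0.546), Ereg (1.48 ± 0.234), Erbb3 (1.17 ± 0.107), Tgfa (0.346 ± 0.050), Btc (0.287 ± 0.0188) and Areg (0.0849 ± 0.0582), each as mean ± SD of CPM per kb with n = 3. The ranges of Hbegf and Errfi1, of Errfi1 and Egfr, of Ereg and Erbb3, and of Tgfa and Btc overlapped, so that these neighbours were not apart beyond their spread. In AS podocytes Hbegf was first at 51.0 ± 10.7, followed by Nrg1 at 38.2 ± 0.724, Egfr at 37.1 ± 1.84 and Errfi1 at 36.6 ± 18.4 CPM per kb (SD, 3 samples per line), and Egfr overlapped with both Nrg1 and Errfi1. Nrg1 thus stood in the fourth place in WT and in the second place in AS podocytes. The places next to it depended on the length used. With the longest transcript in place of all exons, Nrg1 in AS podocytes was at 73.1 ± 1.38 CPM per kb (SD, 3 samples), above every sample of Egfr and Errfi1 and within the range of Hbegf, and Errfi1 at 43.0 came before Egfr at 41.1 CPM per kb.

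**Figure D3:**
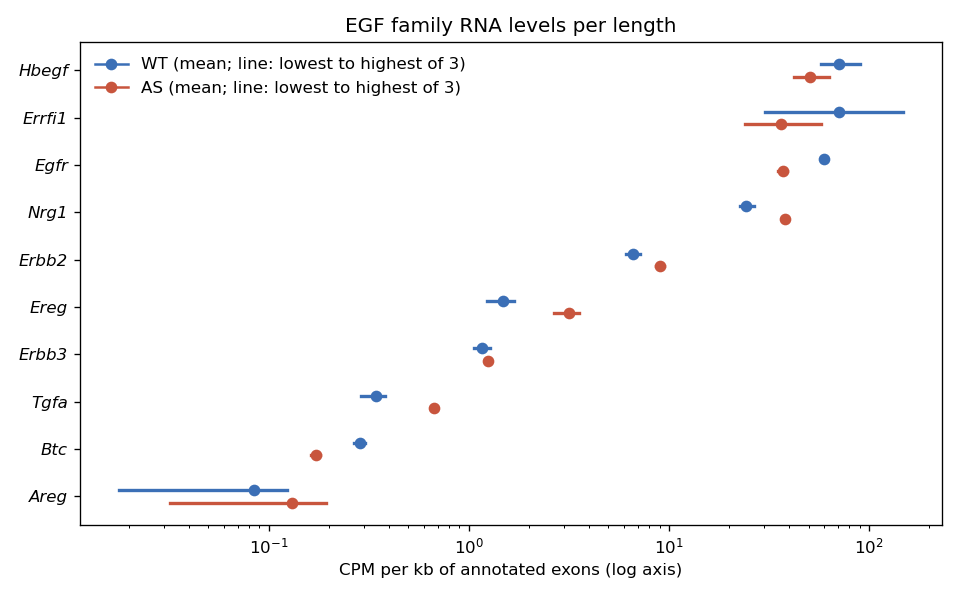
CPM per kb of annotated exons (horizontal log axis) of the 10 genes in WT (blue) and AS (red) podocytes, with the mean as a point and a line from the lowest to the highest of 3 samples. Egfr falls from 59.6 to 37.1 and Nrg1 rises from 24.5 to 38.2, and Tgfa, Btc and Areg lie below 1 in both lines.

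Summed over the 3 receptors, the level per length was 68.5, 66.0 and 67.6 CPM per kb in the WT samples and 49.3, 45.8 and 47.1 CPM per kb in the AS samples, without overlap, and most of it was Egfr. Summed over the 6 ligands it was 119, 83.0 and 89.9 CPM per kb in WT and 107, 89.5 and 84.0 CPM per kb in AS samples, and these overlapped. The makeup of the ligand sum differed more than the sum. Hbegf made up 72.6% of the mean ligand level in WT and 54.6% in AS podocytes, and Nrg1 25.1% and 40.9%, while the other 4 ligands together stayed a small part of it. With the longest transcript as length, Hbegf made up 70.6% and 52.4% and Nrg1 27.9% and 44.9%. These sums are descriptions with no test.

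The genes whose log2 CPM over the 6 samples, centred on its mean, lay closest to that of Egfr were Cltb, which encodes a clathrin light chain, Sorbs3 (vinexin) and the imprinted transcript Peg13. Their root mean square distances were 0.0285, 0.0290 and 0.0318 on the log2 scale. The log2 fold changes of these genes were -0.69, -0.71 and -0.73, which is what closeness to Egfr selects in a comparison of 2 lines.

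The wider pathway was read from 6 lists with 74 genes that hold none of the 10 genes. Of the 70 tested, 26 (37.1%) differed between the lines, 14 higher and 12 lower, against 40.1% of all genes tested, and their median log2 fold change was -0.10. The share of calls was thus near that of all genes. The list of other ligands and receptors of the family held Egf, Epgn, Nrg2, Nrg3, Nrg4 and Erbb4, of which 2 were tested and neither was called. Egf was at 2.97 ± 0.679 (WT) and 2.3 ± 0.380 CPM (AS) (SD, 3 samples per line), in log2 -0.37 (SE 0.22, edgeR adjusted p = 0.225). Nrg2 was at 2.52 ± 0.342 and 3.18 ± 0.422 CPM (SD, 3 samples per line), in log2 0.33 (SE 0.18, edgeR adjusted p = 0.187). The samples held at most 13 counts of Epgn, 13 of Nrg4 and 2 of Nrg3.

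Of the 7 genes for ligand shedding and trafficking, 3 were higher and 1 was lower in AS podocytes. The share called was 57.1%, against 40.1% of all genes tested. Rhbdf2 (iRhom2), which carries Adam17 to the cell surface, rose from 35.5 ± 1.41 to 55.3 ± 2.80 CPM (SD, 3 samples per line), in log2 0.64 (edgeR adjusted p = 6.15e-05). The protease Adam9 rose from 225 ± 11.9 to 307 ± 4.74 CPM (SD, 3 samples per line), but it lies on chromosome 8 and its log2 fold change went from 0.45 to 0.14 (edgeR adjusted p = 0.101) with chromosome medians removed. Adam10, which sheds Btc among others, fell from 247 ± 13 to 199 ± 8.59 CPM (SD, 3 samples per line), in log2 -0.31 (edgeR adjusted p = 0.00345). Adam17 itself, the main sheddase of Hbegf, Areg, Ereg and Tgfa, was at 50.6 and 46.2 CPM and did not pass (log2 fold change -0.13, adjusted p = 0.322, edgeR). Adam17 was named after its value was seen.

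Downstream of the receptors, the 16 adaptor and RAS-MAPK genes held 3 higher and 4 lower calls (43.8%, against 40.1% of all genes tested). Map2k1 (MEK1) fell from 98.9 ± 2.09 to 74.7 ± 2.81 CPM and Map2k2 (MEK2) rose from 94.2 ± 1.61 to 124 ± 2.33 CPM (SD, 3 samples per line), with log2 fold changes of -0.40 and 0.40 (adjusted p = 0.000307 and 0.000198, edgeR). Map2k2 lies on chromosome 10, and its log2 fold change was 0.09 (edgeR adjusted p = 0.183) with chromosome medians removed. The adaptor Shc1 fell from 199.9 ± 4.73 to 163 ± 8.66 CPM (SD, 3 samples per line). In the PI3K list 3 of 10 genes were higher and 1 was lower, a share called of 40%. The PI3K subunit Pik3cb rose from 78.6 ± 2.11 to 109 ± 9.06 CPM (SD, 3 samples per line), in log2 0.46 (edgeR adjusted p = 0.000584). The regulatory subunit Pik3r2, on chromosome 8, rose by 0.41 on the log2 scale (edgeR adjusted p = 0.000494), and its log2 fold change was 0.10 (edgeR adjusted p = 0.207) with chromosome medians removed.

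Among the 20 genes for receptor turnover and feedback, AS podocytes held 4 at a higher and 5 at a lower level. The share called was 45%, against 40.1% of all genes tested. Spry4, a Sprouty inhibitor of the RAS pathway, was at 19.3, 12 and 12.6 CPM in WT and at 8.92, 7.04 and 6.43 CPM in AS samples, without overlap, and fell by 0.98 on the log2 scale (edgeR adjusted p = 0.00343). Hgs, an ESCRT component that sorts internalized Egfr to lysosomes, fell from 109.5 ± 3.49 to 92.0 ± 1.71 CPM, and Lrig2, of a family of transmembrane regulators of these receptors, rose from 27 ± 1.41 to 34.2 ± 0.558 CPM (SD, 3 samples per line). Of the 15 ERK-responsive genes, 2 were called (13.3%, against 40.1% of all genes tested). The ETS factor Etv5 was at 66.2, 64.2 and 67.5 CPM in WT and at 30.1, 26.9 and 26.1 CPM in AS samples, a log2 fold change of -1.25 (SE 0.07, edgeR adjusted p = 1.29e-06). Myc rose from 27.1 ± 0.107 to 38.7 ± 6.31 CPM (SD, 3 samples per line), in log2 0.51 (edgeR adjusted p = 0.00491).

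A high replicate 1, as in Errfi1, was also seen in many other genes that ERK signalling induces. In the ERK-responsive list, WT replicate 1 was the highest WT sample in 11 of 15 genes (73.3%, against 37.5% of all genes tested) and AS replicate 1 the highest AS sample in 10 of 15 (66.7%, against 33.8%). The median ratio of WT replicate 1 to the mean of the other WT samples was 1.98 over this list and 0.994 over all genes tested, and for AS replicate 1 it was 1.19 and 0.997. Being highest in replicate 1 was about as common in some other lists: WT replicate 1 led in 80.0% and AS replicate 1 in 70.0% of the 10 PI3K genes, and each led in 70.0% of the 20 turnover and feedback genes. The median ratios of replicate 1 to the others were smaller there, at 1.05 and 1.06 for the PI3K list and 1.07 and 1.06 for the turnover and feedback list. The shares were lower in the adaptor and RAS-MAPK list, at 43.8% (WT) and 50% (AS), and in the shedding list, at 57.1% and 28.6%. In the list of other family genes, with 2 tested, they were 50% and 0%. Egr1 was at 754, 228 and 159 CPM in WT and at 366, 301 and 210.1 CPM in AS samples. The dual-specificity phosphatase Dusp6 was at 131, 40.4 and 30.0 CPM in WT and 38.5, 25.0 and 22.8 CPM in AS samples, and Dusp5 at 96.9, 22.8 and 15.5 CPM and 24.0, 9.32 and 8.18 CPM. Egr1, Dusp5 and Dusp6, and Fosb and Atf3 in the heat map, were named after their values were seen, and none of these passed the test over all samples (edgeR adjusted p = 0.570, 0.0631, 0.0667, 0.280 and 0.377). Of the 15 genes, Etv4, Etv5, Myc and Ccnd1 did not have WT replicate 1 as the highest WT sample. Fos, Jun, Ier2, Etv4 and Ccnd1 did not have AS replicate 1 as the highest AS sample. Dusp4, of the turnover and feedback list, was lowest in WT replicate 1, at 76.9, 82.4 and 83.7 CPM in the WT samples. In the AS samples Dusp4 was highest in replicate 1, at 83.9, 70.4 and 60.8 CPM. Dusp4 was named after its values were seen. Ccnd1 (cyclin D1) was at 149, 288 and 299 CPM in the WT samples, lowest in replicate 1, and Etv4 was lowest in replicate 1 of both lines, at 29.0, 33.2 and 37.7 CPM in WT and 26.4, 29.0 and 32.8 CPM in AS samples. What set replicate 1 apart was not tested.

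**Figure D4:**
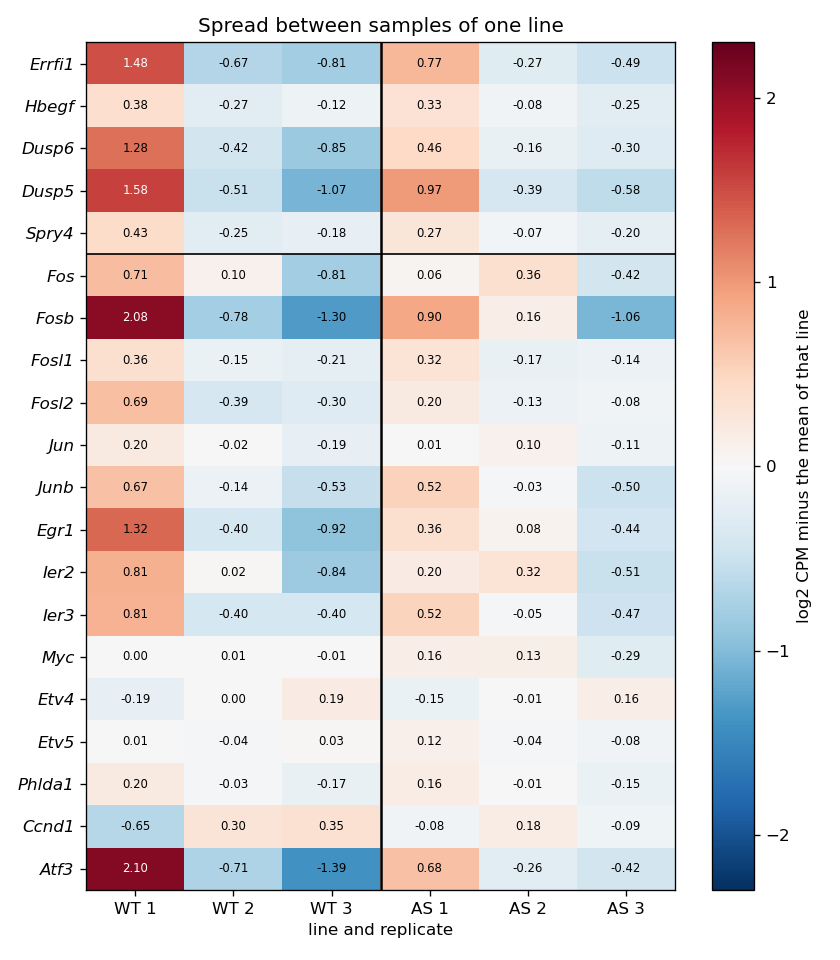
Log2 CPM minus the mean of its own line (colour and printed number) for Errfi1, Hbegf, 3 feedback inhibitors (above the horizontal line) and the 15 ERK-responsive genes (below it) in each WT and AS sample. Errfi1 is 1.48 above the mean of its line in WT replicate 1 and 0.77 above in AS replicate 1, and Fosb, Atf3, Egr1, Dusp5 and Dusp6 are also highest in replicate 1 of both lines, whereas Etv5 is at most 0.12 above the mean of its line.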

How the data were processed

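RNA from 3 WT and 3 AS samples was sequenced after library preparation with 15 cycles of PCR. The files as deposited hold raw counts per gene, whole and not normalized. The submitters' processing notes name FastQC, Trim Galore, STAR and edgeR and the build mm39; of the counting tool, annotation and strand setting, none is given in the sources used here. Names, chromosomes and exon lengths came from GENCODE M21 (GRCm38), which matched 51880 of 57132 identifiers without the version, so no gene coordinates are given; promoter windows are RefSeq's.

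Genes were filtered with filterByExpr (minimum count 10, minimum total 15), scaled by TMM and fitted with genotype as the only term in edgeR 4.0.16 (R 4.3.3); the standard error is the log2 fold change over the square root of F. Limma 3.58.1 (voom) and DESeq2 1.42.0 were alternatives. The test was checked on simulated data. With 3 samples per line, the smallest p of an exact permutation test is 0.1. Upper limits for genes at 0 account for counting error alone, because PCR copies were not told apart by molecular identifiers.

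The 10 genes, the pathway lists and the markers were chosen with earlier results of these data known. Named beside the 10 were Col4a3, podocyte genes, the other family genes, up to 3 called genes per pathway list with the smallest adjusted p, and the 3 genes closest to Egfr; genes of this choice that are withheld are not reported here.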

Additional observations from a re-analysis of the deposited data

How the results depend on the processing

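The number of genes called was 6 of the 10 in the family and ran from 5 to 7 over the 15 alternative fits. Leaving out each sample in turn gave 5 to 6. For the pathway lists the number was 26 and ran from 20 to 35, and for all genes tested it was 6517 and ran from 5120 to 7066, so that all of these stayed within 1.5 times the number from all samples. Egfr, Erbb2, Ereg, Tgfa and Nrg1 passed in the same direction in each of these fits. Btc passed in 6 of the 15. Hbegf and Errfi1 passed without a filter on low counts (adjusted p = 1.12e-05 and 8.42e-05, edgeR). Their log2 fold changes in that fit were -0.47 and -0.95, as with the filter. The SE went from 0.18 to 0.089 for Hbegf and from 0.57 to 0.20 for Errfi1. For Btc it went from 0.24 to 0.31, and Btc missed the threshold. The cause was not tested. The direction was reversed in 2 of the 135 values for the family: the log2 fold change of Errfi1 was 0.19 without WT replicate 1 (-1.45 to 0.19 with each sample left out), and that of Erbb3 was -0.22 with chromosome medians removed. Among 359 values for further named genes, 355 kept direction and side of the threshold and 4 lost the threshold. The order of levels per length in WT podocytes was the same with the longest transcript as length and with library size only; in AS podocytes, Egfr and Errfi1 changed places with the longest transcript, and Nrg1 went from 38.2 to 73.1 CPM per kb.

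The labels give the samples of each line as sets 1, 2 and 3, called replicates here. They do not say what samples of the same set number share. Over all genes tested, deviations from the line mean correlated at 0.147, 0.0939 and 0.0526 between samples of the same number. Pairs of unlike number were at -0.0634, -0.106, -0.130, -0.0206, -0.0298 and 0.0571. Each AS replicate correlated best with the WT replicate of its own number. Not every pair of the same number was over 0.1, and WT replicate 3 correlated better with AS replicate 2 (0.0571) than with AS replicate 3. With the replicate number as a block, 7 of the family and 7066 genes were called: Hbegf (-0.46, adjusted p = 0.000829) and Errfi1 (-0.66, adjusted p = 0.0189) passed and Btc (edgeR adjusted p = 0.0568) did not. Removing replicate 1 of both lines was chosen after seeing the data and gave 7 of the family. Depth limits Areg, Erbb4, Epgn, Nrg3 and Nrg4, which were near 0 counts.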
